A study of Homo sapiens with 5 samples.

Results

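The comparison described here asks what differed between MDA-MB-231 cells kept at 20% O2 for 10 days and the same line kept at 20% O2 for 1 day. Its members are the genes that reached 5 CPM in either of these libraries in the authors' deposited table. CPM is a count scaled to the size of its library, here with trimmed-mean (TMM) factors. They number 10974 of 26475 rows. Of these, 10528 reached 5 in both libraries, 254 were below it on day 1 and 192 were below it on day 10. The last genes inside this limit had 5.08 TMM CPM, and the first outside had 5.00.

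MDA-MB-231 is an established human breast cancer line of triple-negative, mesenchymal character. RNA was sequenced from 5 conditions of this line, each with 1 library: 1 day at 20% O2, 1 day at 1% O2, 10 days at 20% O2, 10 days at 1% O2, and reoxygenated cells, which had 10 days at 1% O2 and then 10 days at 20% O2. Low oxygen is the main subject of the series, and the libraries at 20% O2 are its controls. No gene was altered and no compound is named in the labels, which do not say whether the day 1 and day 10 cells were separate cultures, how often medium was changed or how dense the cells were.

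Totals were 10764207 counts on day 1 and 12544953 on day 10 at 20% O2, so 1 count was 0.0963 and 0.0816 CPM. The other libraries held 7719797 to 11189152 counts. Ribosomal RNA rows took 1.55% and 1.58% of the counts at 20% O2, and the 10 highest rows took 5.54% and 5.09%. With 1 library a side no difference could be tested. Each difference is given as a log2 difference of CPM (day 10 minus day 1, prior count 2) with an exact Clopper-Pearson 95% interval of the count ratio. That interval covers counting error only, since reads had no molecular identifiers and there was no replicate culture. Genes whose log2 difference reached 1 or -1 (2-fold) are named called, which is a rule of size and not a test.

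Cultured tumour cells condition their medium and crowd as they grow, and the cytokines, proteases and matrix proteins they secrete can act back on them. Complement, serum amyloid and antiprotease genes are classical targets of the inflammatory factors NF-kB, STAT3 and C/EBP-beta in epithelial and liver cells. ID genes and inhibitory SMAD genes are immediate targets of bone morphogenetic protein (BMP) and TGF-beta signalling and are widely used as its readout.

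The libraries were alike for most genes. The median log2 difference over the 10974 genes was -0.01, the central 95% lay between -0.61 and 0.71, and 90.5% were within 0.5 of 0. In all 162 genes (1.48%) were called, 114 higher at day 10 (1.04%) and 48 lower (0.437%). Higher genes were 70.4% of those called, a share that ran from 57.5% to 77.6% over the other filters and call rules tried. The higher genes were led by secreted defence proteins, among them the antiproteases PI3 and SLPI and complement C3. TAGLN, PLCB4, ADM and APLN were among the lower ones.

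**Figure D1:**
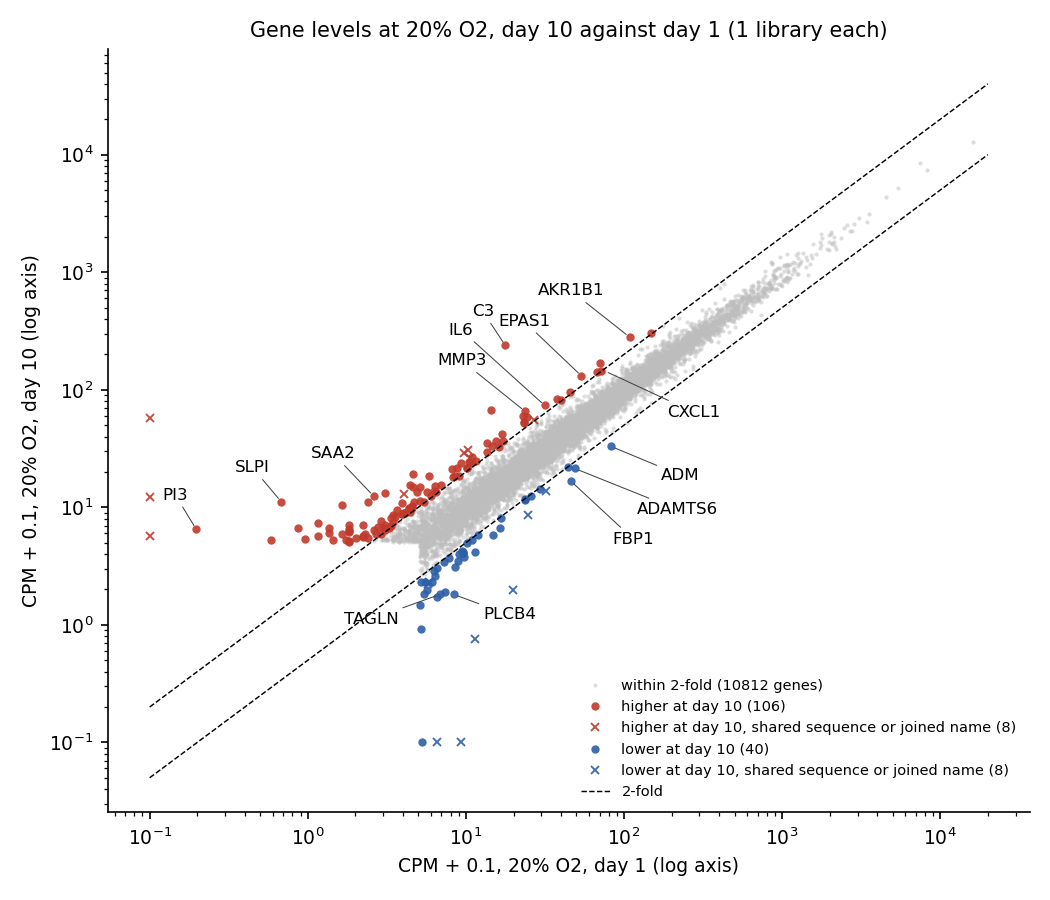
Level of each of the 10974 genes at day 1 (x axis) and day 10 (y axis) at 20% O2, as CPM plus 0.1 on log axes; dashed lines mark 2-fold, colours mark the 114 higher and 48 lower genes, and crosses mark those that share sequence with another gene or carry a joined name. Most called genes lie at low levels, while C3, AKR1B1, EPAS1 and ADM are called at higher ones; the call used a prior count of 2, so some grey points at low levels lie outside the dashed lines.

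Calls were concentrated among weakly detected genes. Of 1502 genes with a mean under 10 CPM, 6.86% were called (69 higher, 34 lower). Among the 3958 genes between 30 and 100 CPM the share was 0.404%, with 12 higher and 4 lower. Between 100 and 300 CPM, 6 of 1985 genes were higher and 0 were lower. None of the 606 genes with a mean of 300 CPM or more was called in either direction, although 22.3% of the 10974 genes had a counting interval wholly above 0 and 23.9% had one wholly below 0. The 5 CPM limit adds to this: 64 of the 114 higher genes were below 5 on day 1 and 33 of the 48 lower ones were below 5 on day 10, so these genes had to differ to be members. The counting interval lay wholly past 2-fold for 46 higher and 14 lower genes.

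Some of the most extreme rows are near-identical to, or overlap, another gene, among which the authors' estimation shared out reads. SMN2 had 0 counts on day 1 and 710 on day 10, at least 200-fold higher against a floor of 3 counts per library. Its sampled sequence is 91.0% shared with other genes, and SMN1 and SMN2 summed differed by -0.10. GTF2H2C had 0 and 148 counts while its copy GTF2H2 had 96 and 0, and their sum still differed by 0.38 (0.00 to 0.77). TMEM256-PLSCR3, with 67 counts on day 1 and 0 on day 10, is a joined name and was not summed with another row. H3F3A, a replacement histone H3 gene with 11.5% of its sampled sequence shared, was not among the uncertain genes but had 54 counts on day 1 and 0 in the other 4 libraries, at least 21.2-fold lower at day 10, while the sum of H3F3A, H3F3B and H3F3C differed by -0.22. In total 8 higher and 8 lower genes shared at least 50% of their sampled sequence or had joined names, and these are uncertain. Past 4-fold there were 19 higher genes, 16 of them not of this kind, and 7 lower genes, 3 of them not of this kind (PLCB4, KRTAP2-3 and H3F3A).

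Of 9 complement genes among the members, 4 were called higher at day 10 and 0 lower, beside 1.04% and 0.437% of all genes compared. C3, the central component that all complement pathways cleave (chromosome 19, 6677704 to 6720650, GRCh38), had 17.6 CPM at day 1 and 239 at day 10 at 20% O2, 24.2 and 425 at 1% O2, and 420 in reoxygenated cells. It was low in both day 1 libraries and high in the 3 libraries of later times. Its log2 difference at 20% O2 was 3.75 (3.54 to 3.98), from 183 and 2928 counts. CFB, the protease of the alternative pathway, went from 5.78 to 18.4 CPM, a difference of 1.64 (1.26 to 2.11), but 39.0% of its sampled sequence is shared with another gene. C1S and C1R, the proteases of the classical pathway, differed by 1.33 (0.70 to 2.17) and 1.14 (0.76 to 1.57). They are neighbours on chromosome 12, with 9187 bases between them. C1S was below the 5 CPM limit on day 1 (2.12 CPM), so it had to differ to be a member. The list held 15 genes, and the median of the 9 members was 0.61. The membrane regulators CD55, CD46 and CD59, which restrain complement on the cell's own surface, differed by 0.55, 0.14 and -0.23 and were not called.

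Antiproteases and serum amyloid genes were the other group at the top. SLPI, an inhibitor of leukocyte elastase, had 0.578 CPM (6 counts) at day 1 and 11.1 CPM (136 counts) at day 10, a difference of 3.87 (3.10 to 5.73). At 1% O2 SLPI had 1.30 CPM at day 1 and 24.5 at day 10, and reoxygenated cells had 11.6. PI3 (elafin), another elastase inhibitor, had 1 count at day 1 and 79 at day 10, with an interval of 3.54 to 11.4 that its single count leaves wide. PI3 and SLPI belong to the same family and lie 75695 bases apart on chromosome 20. SERPINA1, the plasma inhibitor of elastase, had 2.12 and 7.01 CPM, a difference of 1.64 (1.04 to 2.47). SAA2, an acute-phase serum amyloid protein, had 2.50 and 12.4 CPM and differed by 2.22 (1.70 to 2.97). SAA1 differed by 1.57, but 51.5% of its sampled sequence is shared. Summed with SAA2, its rows differed by 1.74 (1.48 to 2.04). Of 18 acute-phase and antiprotease genes listed, 10 were members. Of these 5 were higher and 0 lower, beside 1.04% and 0.437% of all genes compared, and the list median was 0.97. This median rests on the low genes, since it was 0.14 for members with 5 CPM in both libraries. Of those called, PI3, SLPI, SERPINA1 and SAA2 were below the 5 CPM limit on day 1, so they had to differ to be members. The remaining called gene was SAA1, whose shared sequence makes it uncertain. LCN2, an iron-binding acute-phase protein, was below the limit at 0.0963 and 3.83 CPM.

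**Figure D2:**
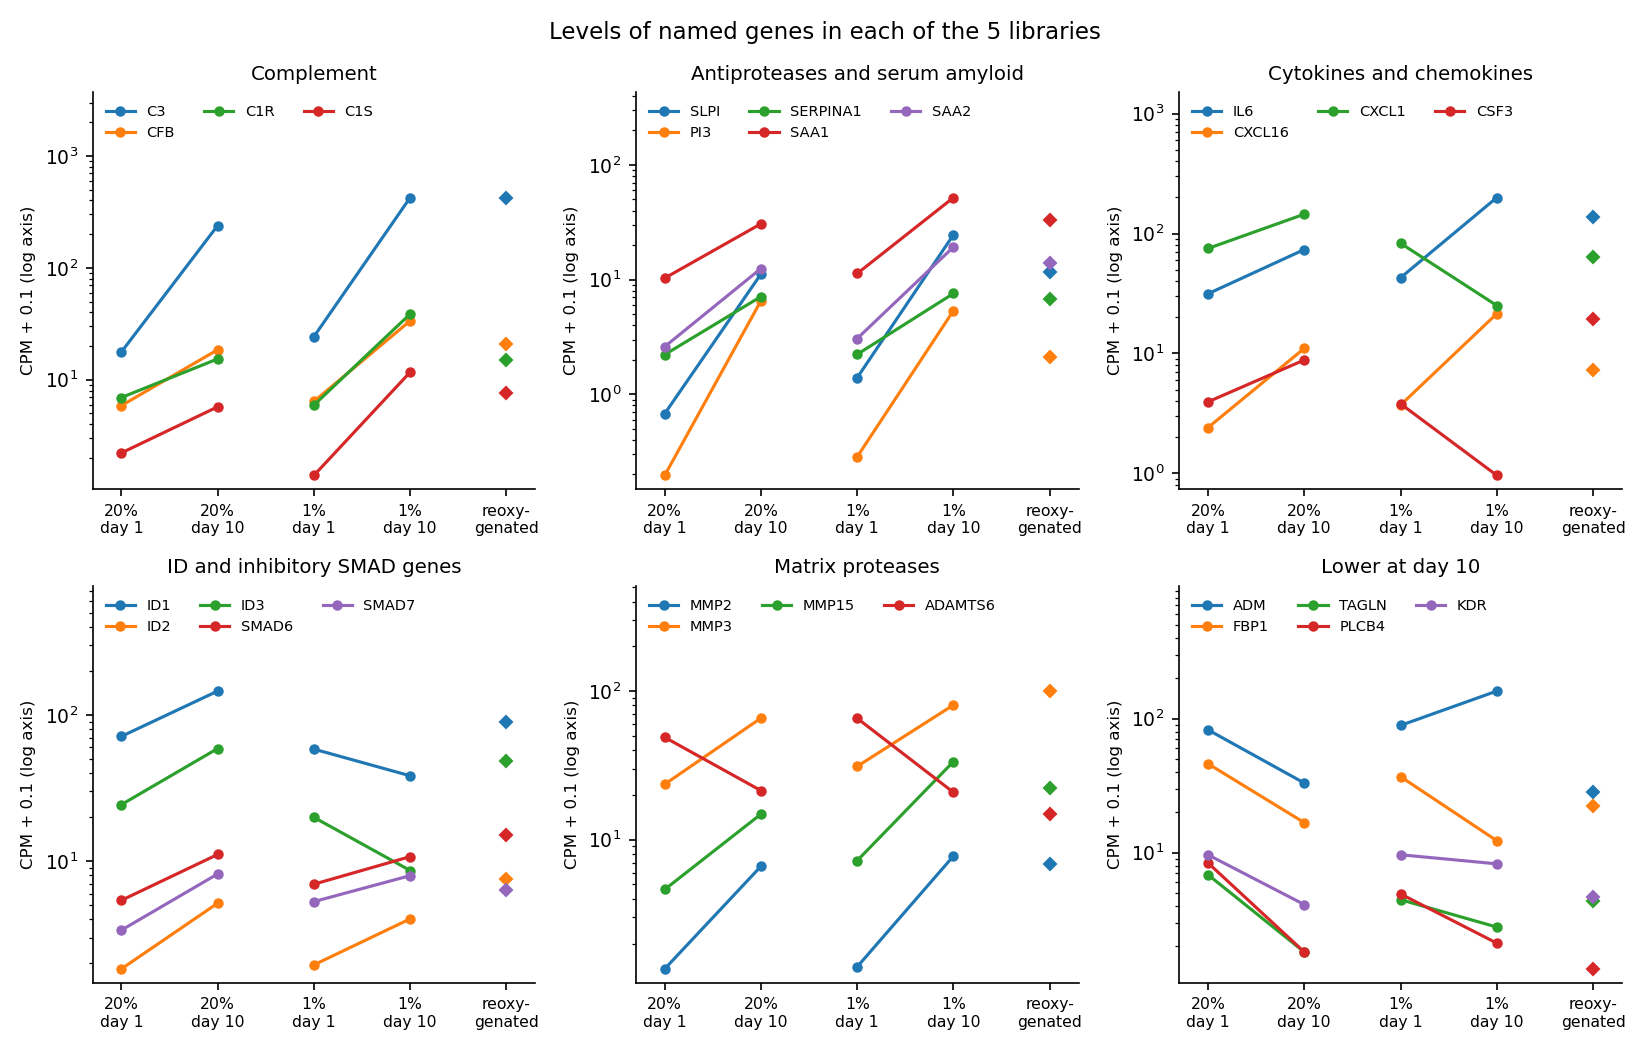
Level of named genes in each of the 5 libraries, as CPM plus 0.1 on log axes, 1 library per point; lines join day 1 and day 10 at the same oxygen level, and diamonds are reoxygenated cells. C3, SLPI and PI3 are higher at day 10 at both oxygen levels, whereas CXCL1, CSF3, ID1 and ID3 are higher at day 10 at 20% O2 and lower at 1% O2, and ADM does the opposite.

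Several cytokines and chemokines were called higher at day 10, and CXCL1 lay just short of the rule. IL6, an inflammatory cytokine that signals through STAT3, had 31.4 CPM at day 1 and 73.5 at day 10, a difference of 1.22 (1.04 to 1.41). It had 42.7 and 200 CPM at 1% O2 and 138 in reoxygenated cells, so both day 1 libraries were the lowest of the 5. CXCL1, a neutrophil-attracting chemokine, had 75.0 and 145 CPM, a difference of 0.95 (0.83 to 1.07), just short of the rule. In the 1% O2 libraries CXCL1 had 82.9 CPM at day 1 and 25.0 at day 10, and reoxygenated cells had 63.5, so the day 10 library at 20% O2 was the highest of the 5. CXCL8, CXCL3 and CXCL2, which act on the same receptor family, had differences of 0.88, 0.75 and 0.65 at 20% O2 and of -0.26, -1.16 and -1.19 at 1% O2. CSF3, the growth factor of neutrophils, differed by 1.14 (0.64 to 1.74) at 20% O2 and by -1.89 at 1% O2. CXCL16, a membrane-bound chemokine, differed by 2.15 (1.61 to 2.93), and CCL20 by 1.56 (0.88 to 2.54) from 17 and 64 counts. EBI3, a subunit of heterodimeric cytokines, differed by 1.29. TNFSF15, a TNF family ligand, had 2.98 and 13.2 CPM at 20% O2 (2.08, 1.59 to 2.75) and 8.06 and 351 CPM at 1% O2. CCL28, a mucosal chemokine, was in the other direction, with 9.15 and 6.36 CPM (-0.51, -0.97 to -0.08). Of 19 chemokines listed 8 were members, with 2 higher, 0 lower and a median of 0.81. Of 19 interleukins and colony-stimulating factors 13 were members, with 3 higher, 0 lower and a median of 0.45. Over all genes compared 1.04% were higher and 0.437% lower. The called genes CXCL16 (2.31 CPM), CCL20 (1.64), EBI3 (2.12), CSF3 (3.85) and TNFSF15 (2.98) were below the 5 CPM limit on day 1. They had to differ to be members, whereas IL6 did not.

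Genes of the NF-kB pathway itself had a lower median than the chemokine and interleukin lists. Those lists hold called genes that had to differ to be members, so the medians are not like for like. All 23 NF-kB genes listed were members, 17 were above 0 and the median was 0.28. In either direction 0 were called, beside 1.48% of all genes compared, a count near that share in a list of this size. The largest difference was that of REL, an NF-kB subunit, with 13.4 and 26.7 CPM (0.98, 0.70 to 1.29), 38.0% of whose sampled sequence is shared. NFKBIA, the inhibitor induced by the pathway, had 74.6 and 90.4 CPM, a difference of 0.28. TNFAIP3, another feedback gene, differed by -0.04.

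The promoters of CXCL1, IL6 and CCL20 are shown because each holds a match to the NF-kB consensus within 120 bases before its start (RefSeq, GRCh38.p14, plus strand, match in capitals). They span chr4:73869273-73869392, chr7:22727080-22727199 and chr2:227813722-227813841, and the matches (that of CCL20 on the opposite strand) lie at -79 to -70, -73 to -64 and -79 to -70 from the start.
CXCL1: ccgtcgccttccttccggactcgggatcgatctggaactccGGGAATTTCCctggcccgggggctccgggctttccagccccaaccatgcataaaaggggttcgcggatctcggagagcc
IL6: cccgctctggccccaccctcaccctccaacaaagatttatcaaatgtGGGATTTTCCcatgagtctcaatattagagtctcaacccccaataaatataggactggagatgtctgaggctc
CCL20: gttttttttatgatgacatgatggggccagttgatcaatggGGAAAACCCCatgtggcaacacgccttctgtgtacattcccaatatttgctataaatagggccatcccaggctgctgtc
These promoters were picked for their matches, and CXCL1 was not called. Matches within 120 bases also lay before the lower genes KDR (-83 to -74) and FREM2 (-41 to -32) and the higher gene SPTB (-57 to -48). The promoters of EPAS1, CFB and ITGA1 held 0 matches within 120 bases, but ITGA1 held a match further out, at -188 to -179. A match describes letters only and is not evidence of binding. In the 250 bases before the start, with both strands searched, 6 of 65 higher genes with a listed promoter held an NF-kB match (9.23%), as did 3 of 27 lower genes (11.1%), 6.05% of 8267 members and 5.05% of 27305 promoters. The C/EBP motif TTNNGNAA was in 23 of 65 higher genes (35.4%), 4 of 27 lower genes (14.8%), 22.5% of members and 33.6% of all promoters. The AP-1 motif TGANTCA was in 6.15%, 3.70%, 3.59% and 6.60% of the same sets. Genes with shared sequence or joined names were left out of the first 3 sets, and overlapping motifs were counted for each motif. A promoter was listed for 65 of the 106 higher genes left and for 27 of the 40 lower ones. C3, SLPI and PI3 had no listed promoter, so the shares do not cover them.

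Of 26 TGF-beta and BMP genes listed 21 were members, 6 were called higher and 0 lower, and the median was 0.37. Over all genes compared 1.04% were higher and 0.437% lower. Among the called genes ID2 (1.73 CPM) and SMAD7 (3.27) were below the 5 CPM limit on day 1, so they had to differ to be members. ID3, an inhibitor of basic helix-loop-helix factors, had 24.3 CPM at day 1 and 58.8 at day 10 (1.27, 1.07 to 1.49), but 19.8 and 8.53 CPM at 1% O2 (-1.20) and 48.4 in reoxygenated cells. ID1, of the same family, had 71.2 and 145 CPM at 20% O2 (1.03) and 58.3 and 38.2 CPM at 1% O2 (-0.61). In both genes the day 10 library at 20% O2 was the highest of the 5 and the day 10 library at 1% O2 the lowest. ID2 differed by 1.45 (0.77 to 2.39) from 18 and 62 counts, and was higher at day 10 at 1% O2 as well. SMAD7 and SMAD6, which block TGF-beta and BMP receptors, differed by 1.25 (0.73 to 1.91) and 1.03 (0.59 to 1.54). TGFBI, a secreted TGF-beta-induced matrix protein, had 67.5 and 142 CPM (1.07, 0.95 to 1.20). The ligands differed by less: TGFB1 by 0.41 and TGFB2 by 0.37, while BMP4 differed by -0.87. SMAD9, a receptor-activated BMP SMAD, and PMEPA1, a TGF-beta feedback inhibitor, were not on the list and were picked after their values were seen. They differed by 1.16 and 1.15.

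Matrix proteases were higher in part. MMP3 (stromelysin) had 23.5 and 65.7 CPM, a difference of 1.48 (1.27 to 1.70), with 31.0 and 80.5 CPM at 1% O2 and 99.8 in reoxygenated cells. Its day 1 libraries were the lowest of the 5. MMP2 (gelatinase A) had 1.25 and 6.52 CPM (2.22, 1.53 to 3.35), and the membrane protease MMP15 had 4.53 and 14.8 CPM (1.66, 1.24 to 2.20). MMP1, the interstitial collagenase, had 850 and 1214 CPM, a difference of 0.51. ADAMTS6, a secreted metalloprotease, was lower, at 48.7 and 21.3 CPM (-1.19, -1.42 to -0.98), and was also lower at day 10 at 1% O2. The inhibitor TIMP3 had a difference of -0.93 and was not called. Of 26 listed 20 were members, with 3 higher and 1 lower and a median of 0.24. Over all genes compared 1.04% were higher and 0.437% lower. MMP2 and MMP15 were below the 5 CPM limit on day 1, so they had to differ to be members. Among 30 members of the collagen, laminin and integrin list 1 was called, the collagen receptor subunit ITGA1, with 23.2 and 52.1 CPM (1.16, 0.95 to 1.39). Its partner ITGB1 had a difference of 0.18.

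EPAS1, which encodes HIF-2-alpha, was higher at day 10, with the labelled oxygen the same in both libraries. It had 53.5 CPM at day 1 and 132 at day 10 at 20% O2, a difference of 1.29 (1.16 to 1.44), with 50.9 and 293 CPM at 1% O2 and 166 in reoxygenated cells. The 2 day 1 libraries were alike and the other 3 lay above them. HIF1A, its paralogue, had 396 and 467 CPM (0.24, 0.18 to 0.30). The other 6 members among HIF subunits and oxygen-sensing hydroxylases had differences of 0.03 to 0.13. Of 35 HIF target members 0 were higher and 1 was lower, with a median of 0.15. In a list of this size these counts are near the 1.04% higher and 0.437% lower of all genes compared. The carbonic anhydrase CA9, a common marker of HIF activity, had 5.10 and 8.48 CPM at 20% O2 (0.71) against 51.9 and 68.7 CPM at 1% O2. ADM (adrenomedullin), a vasodilator peptide, was the lower one, with 82.3 and 32.9 CPM (-1.32, -1.50 to -1.15). It had 88.8 and 160 CPM at 1% O2 and 28.4 in reoxygenated cells, so the 2 libraries cultured longest at 20% O2 were the lowest.

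Among well detected genes, AKR1B1 (aldose reductase) was called higher. It had 108 and 281 CPM at 20% O2, a difference of 1.37 (1.28 to 1.47), 87.3 and 389 CPM at 1% O2, and 220 in reoxygenated cells. The related AKR1C1 had 2.98 and 6.93 CPM (1.17, 0.61 to 1.86), with 32.0% of its sampled sequence shared. These were the called genes among 25 members of the NRF2 and antioxidant list (2 higher, 0 lower), whose median was -0.11. Over all genes compared 1.04% were higher and 0.437% lower. AKR1C1 was below the 5 CPM limit on day 1, so it had to differ to be a member. The standard NRF2 targets NQO1 and HMOX1 had differences of -0.50 and -0.65. SOD2, the mitochondrial superoxide dismutase, had 74.2 and 143 CPM and a difference of 0.94.

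The remaining genes with the largest differences upward were of varied kinds and mostly weakly detected. Except for C15orf48 and IGF2, those named below were under the 5 CPM limit on day 1, so they had to differ to be members. CSGALNACT1, which starts chondroitin chains, had 5 and 64 counts (3.00, 2.14 to 5.11). The pregnancy-specific glycoprotein PSG4 had 8 and 81 counts (2.82), and the placental-type phosphatase ALPPL2 had 11 and 89 (2.57). CST1 and CST4, salivary cystatins that are near copies of each other, had 16 and 126 counts (2.59) and 11 and 68 counts (2.20). Summed over 3 cystatin rows they differed by 2.39 (1.92 to 3.05). In reoxygenated cells CST1, CST4 and ALPPL2 had 8, 6 and 3 counts, below or near their day 1 values. S100P, a calcium-binding protein, differed by 2.37. The collagen COL15A1 differed by 2.09, GPNMB, a lysosomal and melanosomal glycoprotein, by 2.04, and the bradykinin receptor BDKRB2 by 1.89. RBKS (ribokinase) and IFITM10 each had a difference of 1.81, SLFN5 of 1.79 and DIO2, which activates thyroid hormone, of 1.78. C15orf48 fell outside the rule for named genes and was picked after its values were seen. It had 14.3 and 66.5 CPM (2.20, 1.96 to 2.48) at 20% O2, 22.6 and 45.3 CPM at 1% O2 (1.00), and 81.0 in reoxygenated cells. H19 and IGF2, imprinted neighbours, were picked after their values were seen and differed by 1.71 and 1.53.

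Lower genes were fewer than higher ones. FBP1, the gluconeogenic fructose bisphosphatase, had 45.9 and 16.6 CPM (-1.45, -1.71 to -1.23), and it was lower at day 10 at 1% O2 too (-1.58). PLCB4, a phospholipase downstream of G proteins, had 86 and 21 counts (-2.15, -3.04 to -1.57). The adhesion receptor ADGRF1, the glutamate receptor subunit GRIK4 and the hair keratin-associated gene KRTAP2-3 differed by -1.92, -1.86 and -2.39. TAGLN, an actin-binding protein of smooth muscle, had 6.74 and 1.71 CPM (-1.86, -2.75 to -1.26). SCHIP1 and RGS4, a regulator of G protein signalling, differed by -1.72 and -1.53. Apart from FBP1, the lower genes named here were below the 5 CPM limit on day 10, so they had to differ to be members.

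Several lower genes belong to vascular signalling, a grouping made after their values were seen. Other vascular genes were called higher, among them the VEGF co-receptor NRP2 (1.13), HEG1 (1.03), BDKRB2 (1.89) and KLF2 (1.11). APLN, the ligand of the apelin receptor, differed by -1.42 (-2.07 to -0.90). KDR, the main VEGF receptor, had 9.53 and 4.00 CPM (-1.21). GUCY1B3, a subunit of the nitric oxide receptor, differed by -1.35, RAMP1, a subunit of the CGRP receptor, by -1.22, VIPR1, a receptor of vasoactive intestinal peptide, by -1.36, and SPNS2, the exporter of sphingosine 1-phosphate, by -1.30. Also lower were the cysteine protease CTSV (-1.44), the RNA-binding NANOS1 (-1.33) and the immune receptor VSTM1 (-1.19). APLN, KDR, GUCY1B3, RAMP1, VIPR1, CTSV and VSTM1 were below the 5 CPM limit on day 10. The higher gene BDKRB2 was below it on day 1. These genes had to differ to be members. HSD17B7, an enzyme of cholesterol synthesis, differed by -1.03 and was the called one of 32 members of that list, beside 1.48% called over all genes. Of the 32 members 26 were below 0 (median -0.19). The p53 target CCNG1, with 104 and 52.3 CPM, was just short of the rule at -0.99.

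Most lists had no called gene, which in lists of this size is near the 1.48% called over all genes compared. Mitosis genes (40 members) had 20 above 0 and 20 below, a median of -0.0045 and 0 calls, and MKI67, the proliferation marker, had 744 and 820 CPM (0.14). At 1% O2 the mitosis list had a median of -1.16 between day 1 and day 10. DNA replication genes (45 members) had a median of -0.15, with 34 below 0. Glycolysis (23 members) had a median of -0.01, interferon-stimulated genes (35) 0.06, MHC class I presentation (14) 0.23, YAP and TAZ targets (25) -0.16, the integrated stress response (24) -0.11 and nuclear-encoded respiratory chain subunits (61) -0.12. Each of these had 0 genes called in either direction. Within the stress response list ATF4, its central factor, had 272 and 150 CPM (-0.86).

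Cytosolic ribosomal protein genes shared a small difference. All 75 listed were members, all 75 had a difference below 0 (74 when library totals replaced TMM factors), 70 had a counting interval wholly below 0, and the median was -0.22. Their summed level was 53521 CPM at day 1 and 45721 at day 10. The lowest was RPS15, with 398 and 291 CPM (-0.45, -0.52 to -0.39). None of the 75 was called, beside 1.48% of all genes compared. Differences also went with transcript length: the median was -0.10 in the 2105 genes of shortest longest transcript (177 to 2245 bases) and 0.07 in the 2105 of longest (6134 bases or more), over 95.9% of members that had a length. The part of length in the ribosomal protein values was not tested. Clustered histone genes had the lowest median of the lists, -0.45. All 8 members of 22 listed were below 0, 6 with a counting interval wholly below 0. Of the 8 members 0 were called, near the 1.48% over all genes compared. HIST1H1C, a linker histone, had 76.9 and 43.2 CPM (-0.83, -0.99 to -0.67), while HIST1H2BK (-0.91) shares 72.5% of its sampled sequence with other genes. Lysosome genes were in the other direction, with a median of 0.19 and 24 of 33 members above 0. PSAP, the precursor of the saposins, had 405 and 738 CPM (0.87, 0.81 to 0.92).

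**Figure D3:**
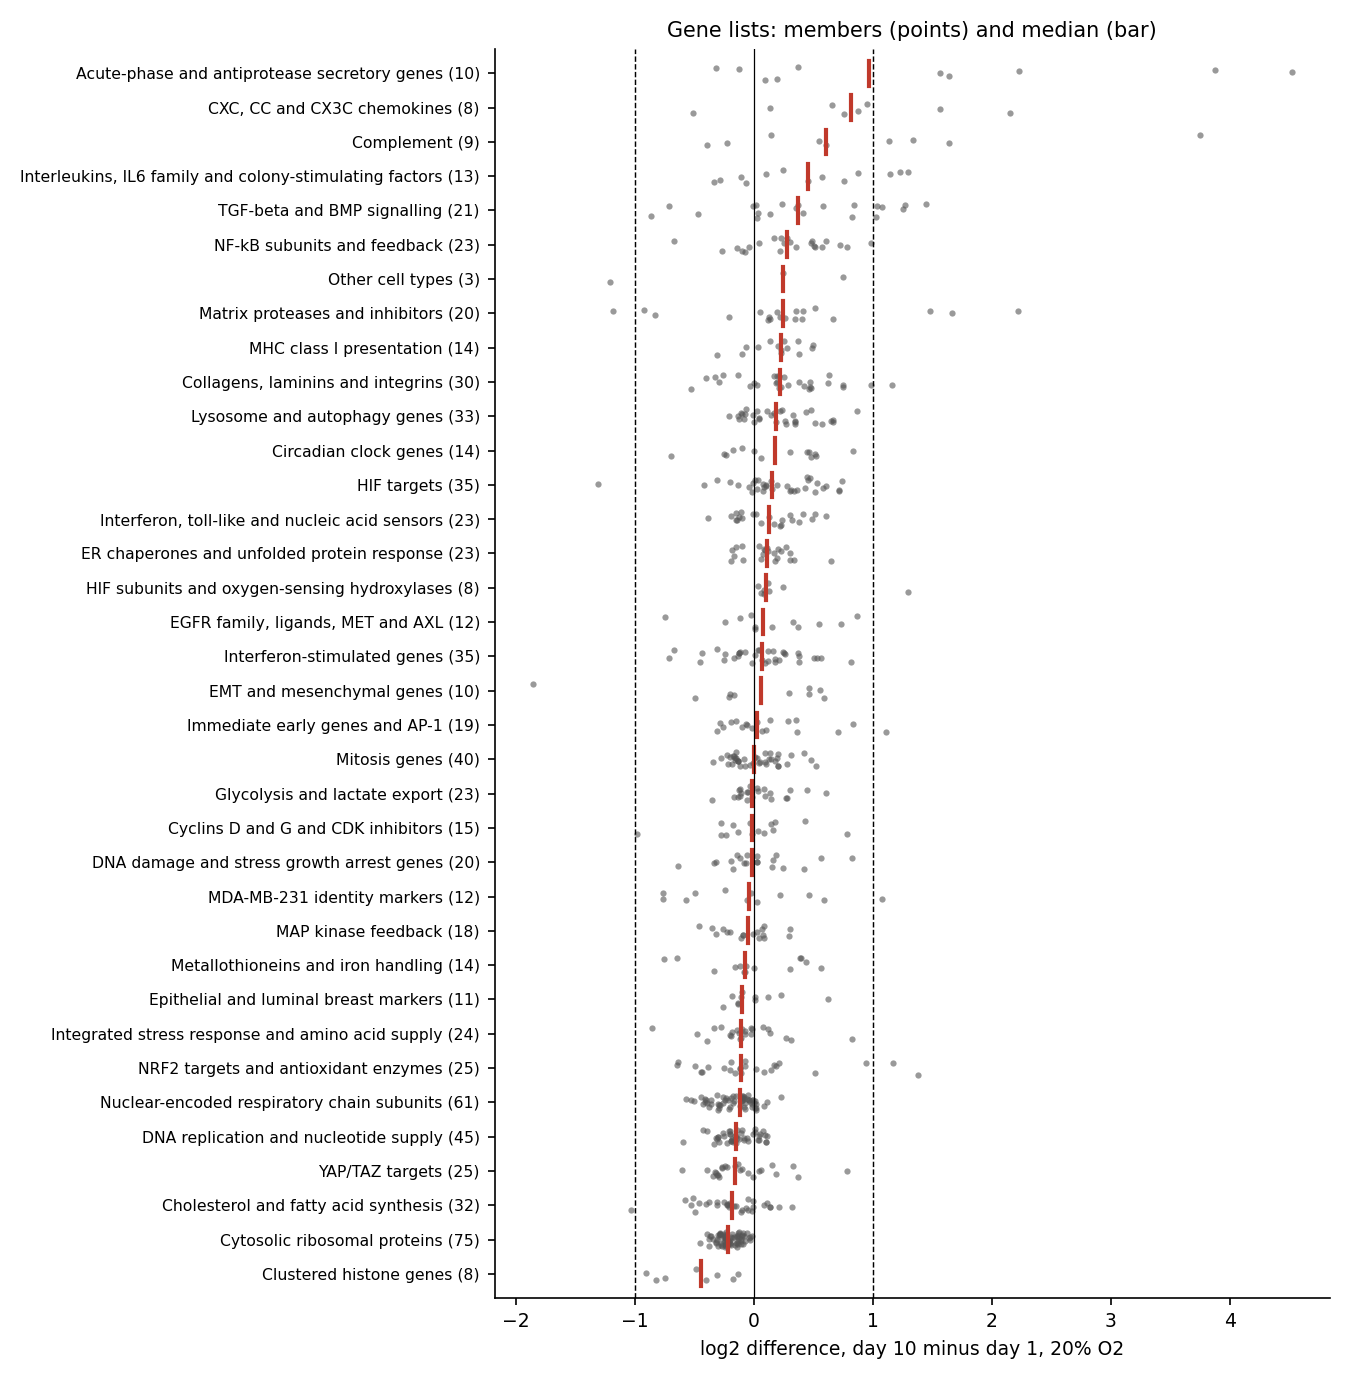
Log2 difference (day 10 minus day 1 at 20% O2) of the members of 36 gene lists, 1 point per gene and a bar at the median, with the number of members in parentheses and dashed lines at 2-fold. Acute-phase, chemokine and complement genes have the highest medians (0.97, 0.81 and 0.61), while the 8 clustered histone genes have the lowest (-0.45) and the 75 ribosomal proteins lie in a narrow band around their median of -0.22. The lists with the highest medians hold members that were below 5 CPM on day 1 and had to differ to be members. The acute-phase median is much lower among members with 5 CPM in both libraries.

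The libraries had the markers of the labelled line. VIM, the mesenchymal filament, had 2198 CPM at day 1 and 1561 at day 10 (-0.49), and CD44, AXL and EGFR had 857, 1061 and 446 CPM at day 1. ESR1, PGR and CDH1, which the line is known to lack, had 0.0816 to 1.06 CPM in both libraries. ACTB and GAPDH, used as loading controls, had differences of -0.05 and -0.35. Of 20 markers of fibroblasts, endothelium, blood, liver and fat 3 were members, COL1A1 (0.75), KDR (-1.21) and CD68 (0.24). Their summed level was 171 CPM at day 1 and 196 at day 10, mostly CD68, and DCN, CD3E, HBB, ALB, APOA1 and ADIPOQ were at 0 in both. In bulk RNA, more cells that express a gene and more RNA of it per cell cannot be told apart.

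A separate pair of libraries gave the same time step at 1% O2, and shares no library with the pair at 20% O2. There 11488 genes were compared, and 1087 were higher (9.46%) and 777 lower (6.76%) at day 10. Of the 114 genes higher at 20% O2, 74 were also called higher at 1% O2, which is 64.9% of the 20% O2 list and 6.81% of the 1% O2 list. Only 102 of the 114 reached the limit at 1% O2, and 74 are 72.5% of these, beside 6.34% of the 10882 genes compared in both pairs. Of the 48 lower genes 10 were also called lower, 20.8% of the 20% O2 list and 1.29% of the 1% O2 list. They are 25.6% of the 39 lower genes that reached the limit at 1% O2, beside 7.04% of genes compared in both. The 6.34% and 7.04% cover genes of all levels, whereas calls were concentrated among weakly detected genes, so these shares are not matched for level. Some higher genes, such as PI3 and SLPI, reached the limit at 1% O2 only at day 10 there. With all genes of each list counted, the 114 higher genes had a median of 1.28 at 20% O2 and 1.53 at 1% O2, 106 had a positive difference at 1% O2, and 62 had the larger difference there. The 48 lower genes had medians of -1.30 and -0.12, and 31 were below 0 at 1% O2. Across the 10882 genes the differences had a Pearson correlation of 0.40 and a Spearman correlation of 0.33; genes are not independent replicates, and each pair is 2 libraries.

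**Figure D4:**
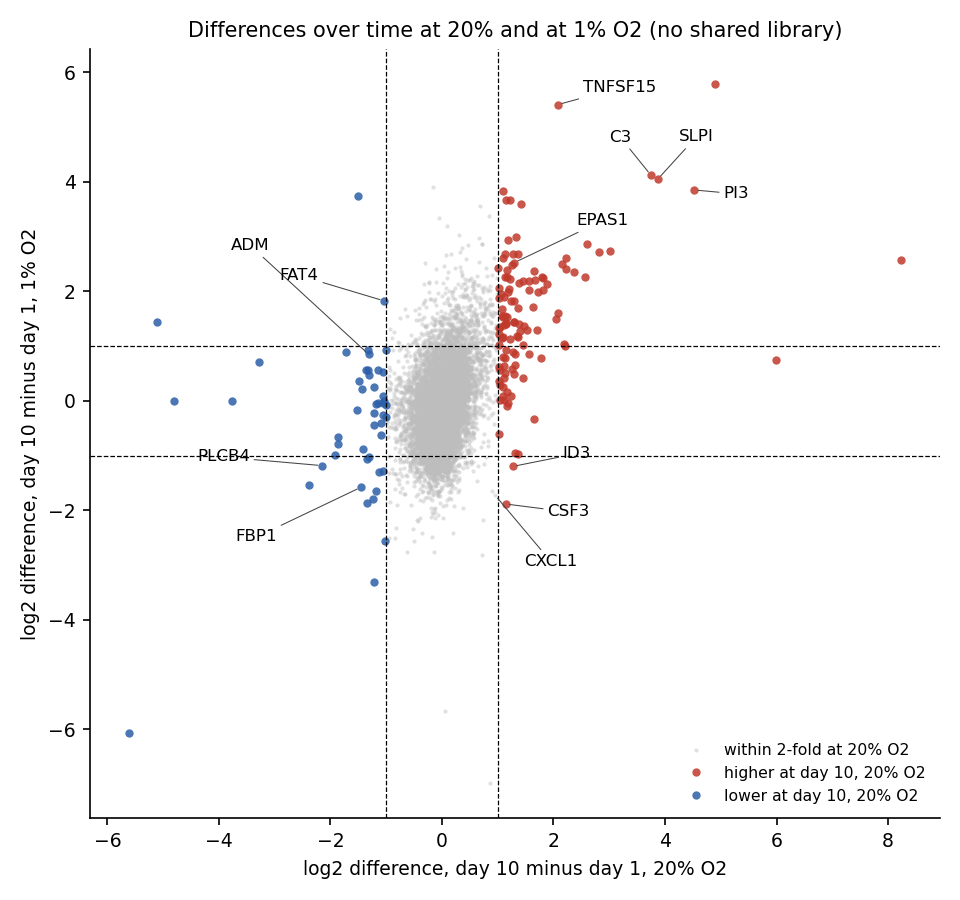
Log2 difference over time (day 10 minus day 1) at 20% O2 (x axis) and at 1% O2 (y axis) for each of the 10974 genes, with dashed lines at 2-fold and colours for the 114 higher and 48 lower genes at 20% O2. Most red points lie in the upper right, with C3, SLPI and PI3 far out on both axes, while the blue points spread on both sides of 0 at 1% O2.

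The leading genes at 20% O2 differed in how they stood at 1% O2. C3, SLPI, PI3 and SAA2 had differences of 4.12, 4.05, 3.85 and 2.62 at 1% O2, near those at 20% O2. EPAS1 and ITGA1 had differences of 2.52 and 2.39 at 1% O2, larger than at 20% O2. KLF2, a flow-regulated transcription factor, had 8.47 and 18.5 CPM at 20% O2 (1.11) and 7.60 and 10.3 CPM at 1% O2 (0.42). ID3 was called in opposite directions, and CXCL1 and CSF3 also had opposite signs. With 1 library per condition, whether the time difference depends on oxygen was not tested.

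The levels of C3 over the 5 libraries were compared with those of the other called genes, each centred on its own mean of log2 CPM. Among 132 candidates the nearest by root mean square distance were SLPI (0.40 log2), CSGALNACT1 (0.52), PI3 (0.78), SAA2 (0.86) and SLFN5 (0.87). Each was lower in both day 1 libraries than in the other 3. All candidates, like C3, had been called for their difference in the main pair of libraries, so likeness within that pair was partly set by selection. The 5 nearest genes were also below the 5 CPM limit on day 1 in that pair, so they had to differ to be members. Only the levels in the libraries outside the pair were free of this choice. Higher genes also lay near each other: 8 of 105 with a RefSeq position had another higher gene within 100000 bases (7.62%), beside 2.11% of 10505 members. These form 4 pairs, C1R with C1S, CST1 with CST4, KRT81 with KRT86 and PI3 with SLPI, and the cystatin and keratin pairs share sequence or overlap. None of the 40 lower genes had a lower neighbour (0.533% of members did). Without joined names and genes that share sequence, long noncoding RNAs were 5 of 40 lower genes (12.5%) and 5 of 106 higher ones (4.72%), beside 1.53% of 10595 members. These shares were not matched for level, and calls were concentrated among weakly detected genes.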

How the data were processed

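RNA from 5 libraries of MDA-MB-231 cells, 1 per condition, was made into mRNA libraries per the labels' protocols. The authors deposited expected counts per gene symbol (26475 rows), estimated and not normalized, and a table of normalized signal, in which each value is the count times a constant per library (TMM-scaled CPM). Bowtie2 2.1.0, RSEM 1.2.15, edgeR and the hg38 build are named in the submitters' processing notes. The sources used here do not give the annotation or strand setting, so overlapping and antisense genes may share reads. Between 3.58% and 4.09% of expected counts were not whole, and all were rounded. Dates stood in place of 28 symbols.

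Genes with 1 CPM in any library (13940) gave TMM factors (edgeR 4.0.16, R 4.3.3) of 0.965 for day 1 and 0.977 for day 10 at 20% O2. Log2 CPM used a prior count of 2, which understates differences of low genes. The deposited signal set membership (5 in either library) and served as an alternative. A count of 0 allows up to 3 counts, or 0.289 CPM on day 1 and 0.245 on day 10. Shared sequence is the percentage of up to 200 sampled words of 50 bases found in another gene, and positions and promoters are from RefSeq tables of GRCh38. The calculation was tested on simulated data.

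Named genes were the 20 highest and 20 lowest differences whose interval excludes 0 (without joined, uncharacterized, small RNA, antisense and pseudogene symbols or genes sharing at least 50% of their sequence), up to 5 called members of each of 36 lists or else the 1 of largest size, and C3, CXCL1, EPAS1, HIF1A, VIM, MKI67, ACTB and GAPDH. The members and lists were chosen with earlier results of these data known. Alternatives covered scaling, prior count, expression filter, call rule and read sharing.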

Additional observations from a re-analysis of the deposited data

Results flagged for a closer look

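Genes called in opposite directions over time at 20% and at 1% O2 were 3 in number by the 2-fold rule, a number that changes with the filter and the call rule. FAT4, an atypical cadherin, had 23.7 and 11.4 CPM at day 1 and day 10 at 20% O2, a log2 difference of -1.04 (-1.36 to -0.75), and 27.6 and 98.4 CPM at 1% O2, a difference of 1.83 (1.65 to 2.02). ID3 had a difference of 1.27 (1.07 to 1.49) at 20% O2 and of -1.20 (-1.59 to -0.85) at 1% O2. TMEM256-PLSCR3, a joined name of which 82.0% of the sampled sequence is shared, had a fitted difference of -5.11 from 67 and 0 counts at 20% O2 and of 1.44 from 83 and 221 counts at 1% O2. The intervals cover counting error only, and the difference between the oxygen levels was not tested, since each condition had 1 library.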

How the results depend on the processing

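Scaling changed little: library totals gave 121 higher and 44 lower genes, DESeq2 size factors 114 and 48, and TMM factors from the 20% O2 libraries alone 114 and 48. The deposited TMM table as log2(value + 1) gave 98 and 34, with 5 genes lower in both time pairs. Filters, which change the genes compared, and the call rule, which does not, moved the counts more. With 5 CPM in both libraries, 50 genes were higher and 15 lower, 32 higher and 2 lower in both time pairs. With a mean of 5 CPM, 30 genes were lower. With 20 CPM in either library, 38 were higher and 11 lower (77.6% higher), 25 and 2 in both pairs. With no filter beyond 1 CPM, 426 were higher and 183 lower, 293 and 31 in both pairs. Intervals wholly past 2-fold left 46 higher and 14 lower, 29 and 2 in both pairs. A 1.5-fold rule gave 419 higher and 310 lower (57.5% higher), 272 and 90 in both pairs. Genes called in opposite directions in the time pairs (3 as reported) were 1 higher and 4 lower at 20% O2 with library totals, 12 and 35 with no filter, 18 and 29 by the 1.5-fold rule, 1 and 1 with 5 CPM in both libraries, and 0 and 1 with intervals wholly past 2-fold. Each setting kept more higher than lower genes. The median of the luminal list turned to 0.064 without the filter (-0.11 as reported), and that of the other cell types to -0.23 without genes that share sequence (0.24 as reported), as their members changed. Under these alternatives 1026 values of named genes stayed within their main counting interval and 6 moved outside it, in PI3, SLPI, CSGALNACT1, H3F3A and ACTB, none with a change of sign. No paired analysis was possible because each condition had 1 library and the labels carry no replicate numbers, and no replicate could be left out for the same reason. Depth limits the low genes: 64 of the 114 higher genes were below 5 CPM on day 1.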

Other observations

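Genes below the 5 CPM limit were not part of the comparison, and a few listed ones differed widely in counts. LCN2 had 1 count at day 1 and 47 at day 10 at 20% O2, and 2 and 109 counts at 1% O2. TFF1, a secreted trefoil peptide, had 2 and 47 counts at 20% O2, and 4 and 12 at 1% O2. C1RL, a complement protease-like gene, had 2.21 and 4.89 CPM at 20% O2 and 3.24 and 18.9 CPM at 1% O2. C5, a terminal complement component, had 1.73 and 4.73 CPM at 20% O2 and 2.69 and 6.52 CPM at 1% O2. They were picked after their values were seen.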
